A study of Rattus norvegicus with 6 samples.

Results

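The genes examined here are those of the non-collagen matrix of connective tissue, cartilage and bone, together with the cell surface proteoglycans and Runx factors that go with them, in rat endometrial epithelial organoids (rEEOs) and rat bone marrow mesenchymal stem cells (rBMSCs). They were taken by symbol (Fn1, Sparc and its relatives, the thrombospondins, tenascins and matrilins, small leucine-rich proteoglycans, lecticans, elastic fibre proteins, CCN proteins, glypicans, syndecans, hyaluronan synthases, bone proteins and Runx factors), with at least 10 counts summed over the 6 libraries. Of the 13728 genes held, 59 matched a symbol and 53 reached 10 counts. Ibsp, Emilin3, Wisp3, Mfap2, Has1 and Thbs4 matched and did not, with totals of 1, 4, 3, 2, 3 and 9 counts, while Efemp1 (1, 0 and 0 counts in rBMSCs, 8, 4 and 3 in rEEOs) lay just above the limit. Runx2, Sp7, Mgp, Eln, Has2, Sdc1, Gpc4, Aspn and Ctgf, which belong to the same groups, were not analysed here.

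Bulk RNA-seq compared 3 rEEOs libraries with 3 rBMSCs libraries, to find what distinguishes the cells that were transplanted into injured rat uteri. The rEEOs were grown from glandular fragments of the uteri of female Sprague–Dawley rats of 5 weeks, held as epithelial spheroids in Matrigel with a medium of EGF, FGF10, noggin, Wnt3a, R-spondin-1, the TGF-beta receptor inhibitor A83-01 and the ROCK inhibitor Y27632, and used at passage 3 to 5. The rBMSCs were a purchased line carrying red fluorescent protein, grown attached to plastic with 10% fetal bovine serum and with neither Matrigel nor these factors. Cell type, culture format, serum and inhibitors therefore differ together and cannot be told apart, and nothing states that the 3 libraries of a cell type came from separate animals or cultures, so the p-values measure the spread between these libraries.

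Connective tissue matrix is built largely by mesenchymal cells. Fibronectin, thrombospondins and periostin link cells to collagen, small leucine-rich proteoglycans such as biglycan and decorin regulate collagen fibrils, fibrillins and fibulins scaffold elastic fibres, and aggrecan and versican bind hyaluronan. Osteonectin (Sparc), osteopontin (Spp1), bone sialoprotein (Ibsp) and osteocalcin (Bglap) are known from bone, although osteopontin is also a secreted product of uterine epithelium that binds integrins. Glypicans and syndecans carry heparan sulfate at the cell surface and act as co-receptors for growth factors, and epithelia and mesenchyme are known to use different members.

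The libraries held between 10457958 and 15421501 counts, and the genes held carried between 81.3% and 82.7% of each library's TPM (a level scaled to transcript length and to the whole library). All 10 epithelial marker genes were read in rEEOs, with a summed level of 4979 to 5575 TPM, against 2.82 to 3.52 TPM in rBMSCs, where 7 of the 10 had no count. The 10 mesenchymal stromal markers summed to 41269 to 43562 TPM in rBMSCs and to 172 to 298 TPM in rEEOs, where Pdgfrb and Thy1 had no count, Col1a1 had 2, 5 and 11 counts, Col3a1 had 0, 1 and 3 and Vim had 3254, 5664 and 4319. Vim, at 171, 297 and 227 TPM, made up nearly all of the rEEOs sums. In the study, staining for the VIM protein did not find it in rEEOs. Smooth muscle markers summed to 2.69 to 11.1 TPM in rEEOs and 558 to 597 TPM in rBMSCs. The endothelial, haematopoietic, adipocyte and chondrocyte lists stayed at or below 4.48 TPM in every library. The rEEOs libraries differed more among themselves: over the members tested, the SD of log2(CPM + 1) had a median of 0.0726 in rBMSCs, 0.422 in rEEOs and 0.16 in rEEOs without replicate 1 (CPM, counts scaled to library size). Over all genes tested, these medians were 0.0877, 0.34 and 0.164.

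Most of these genes were lower in rEEOs than in rBMSCs, and Spp1 made up most of the member RNA that rEEOs held. The 53 members held 2.58%, 2.46% and 2.65% of all TPM in rBMSCs replicates 1, 2 and 3 and 0.469%, 1.3% and 1.37% in rEEOs replicates 1, 2 and 3. All 3 rEEOs libraries lay below all 3 rBMSCs libraries, 1.05% ± 0.500 compared to 2.56% ± 0.0978 (SD, n = 3 each; two-sided exact permutation test, p = 0.1, the smallest that 3 against 3 allows). Without Spp1 the shares were 2.53% ± 0.0974 in rBMSCs and 0.0813% ± 0.0264 in rEEOs (SD, n = 3 each), a ratio of 31.1. In bulk libraries, fewer cells of a type and less RNA per cell cannot be told apart.

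**Figure D1:**
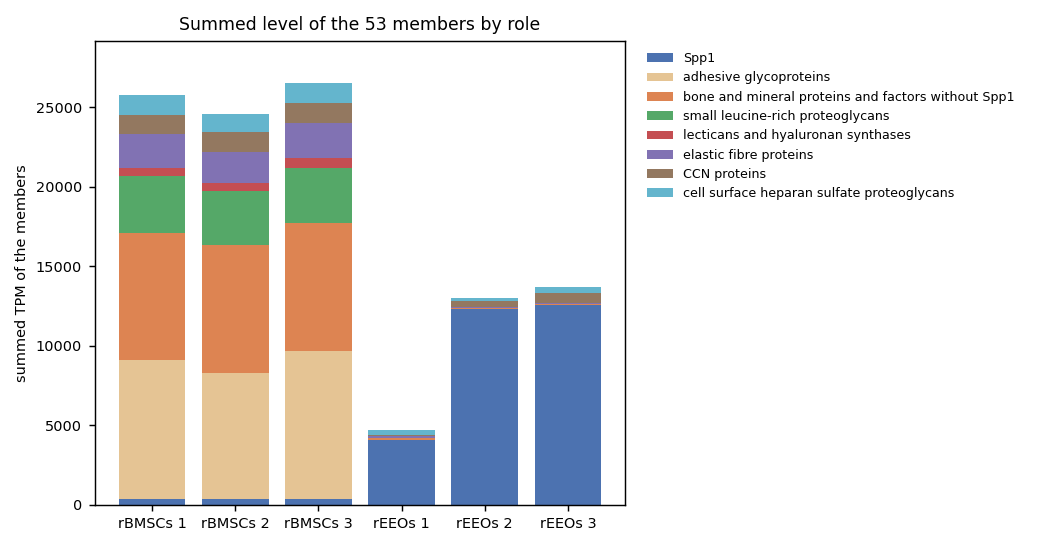
Summed TPM of the 53 members in each of the 6 libraries (y axis, TPM), stacked by role with Spp1 drawn on its own. The rBMSCs bars reach 24606 to 26546 TPM in many roles, while the rEEOs bars reach 4690.4 to 13679.6 TPM and consist mostly of Spp1.

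Differences are given as log2 ratios of rEEOs to rBMSCs from edgeR with their standard errors (SE), and a mean level in TPM carries its SD over the 3 libraries of a cell type. A gene was called when edgeR's quasi-likelihood test gave an adjusted p below 0.05 with an absolute log2 fold change above 2, the thresholds of the study. Of the 53 members, 48 had the 10 counts in 3 libraries needed for the test. Of these, 33 were called lower in rEEOs, where 13.3% of all 10607 genes tested were, and 3 were called higher, where 16.3% of all genes were. By the adjusted p alone, 35 members were lower and 8 higher, against 30.2% and 33.3% of all genes. The filter itself favours such differences, because 18 of the 48 passed with no rEEOs library at 10 counts and 2 with no rBMSCs library at 10 counts. Another 18 had 10 counts in all 6 libraries, of which 7 were called lower and 1 higher. The share called among all genes with 10 counts in all 6 libraries was not computed. These counts therefore cannot be set against a background. The median log2 fold change over the 48 was -7.23 (-4.99 with genes lacking any count in rEEOs set at their bound), where 0.0768 was the median over all genes tested. The 5 members not tested were Bglap, Gpc2, Efemp1, Dcn and Ogn. In a fit of every gene with at least 1 count, Gpc2 and Efemp1 had log2 fold changes of 2.97 and 3.44 (adjusted p = 0.0293 and 0.0274 from edgeR), Dcn and Ogn -5.97 and -7.01 (adjusted p = 0.00743 and 0.00578), and Bglap -0.43 (adjusted p = 0.727).

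**Figure D2:**
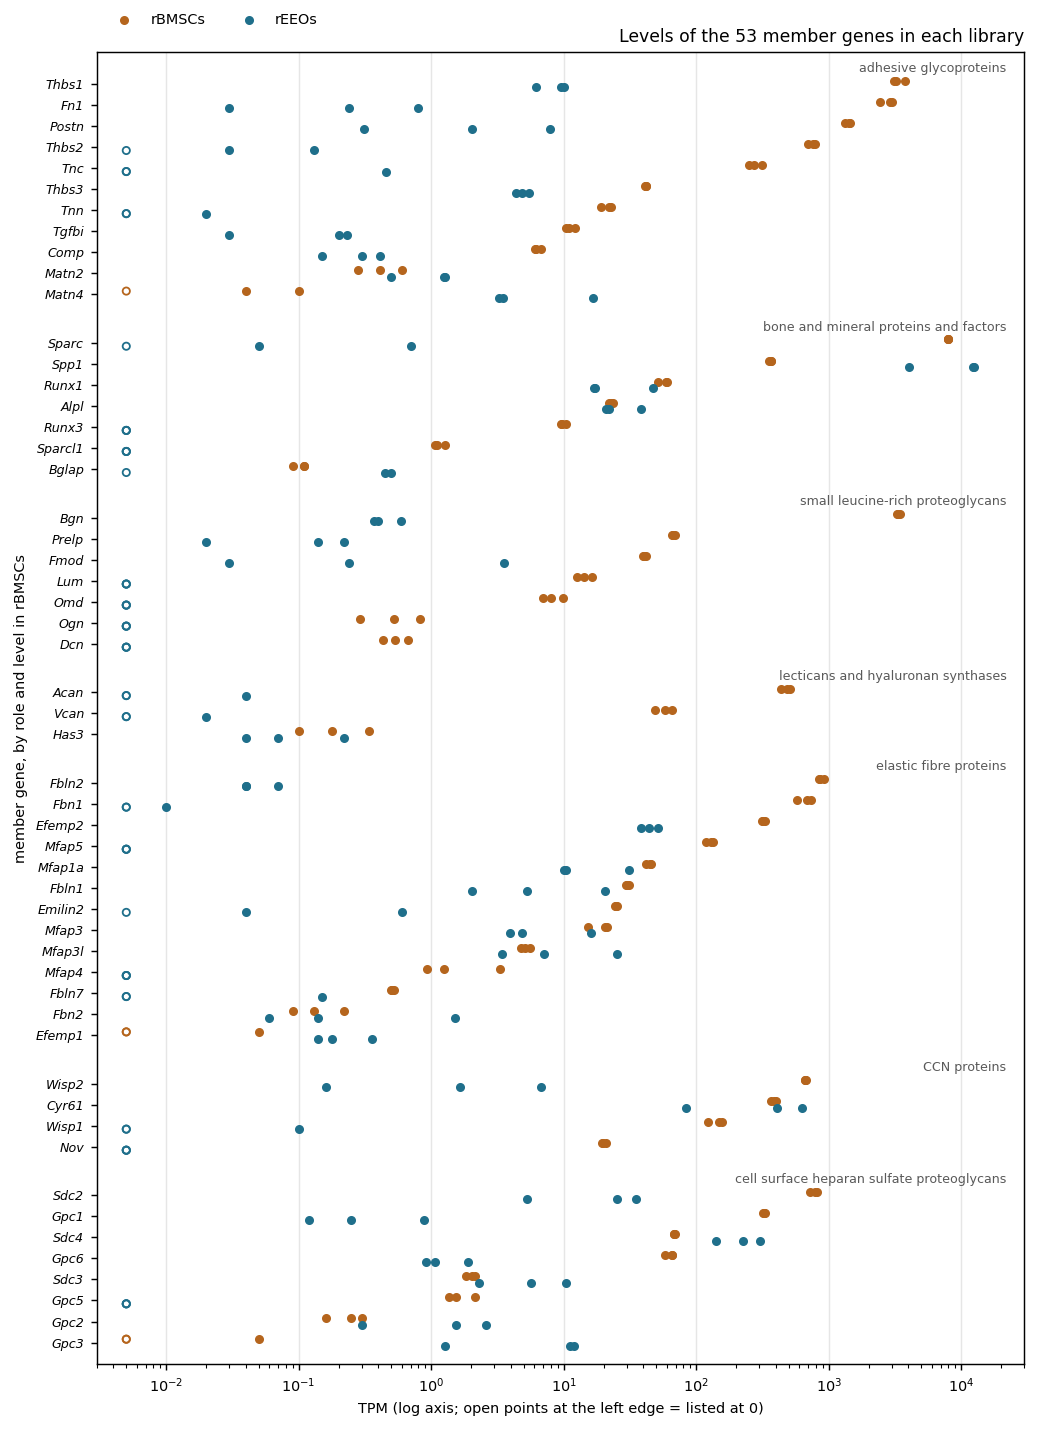
Level of each of the 53 members (rows, grouped by role and ordered by level in rBMSCs) in the 3 rBMSCs and 3 rEEOs libraries, on a log axis of TPM with open points for values listed at 0. The rBMSCs points of most genes nearly coincide, less so for low genes such as Mfap4, Has3 and Ogn. The rEEOs points spread and for most genes lie far to the left, with Spp1, Sdc4, Gpc3 and Matn4 among those to the right.

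The adhesive glycoproteins, which join cells to collagen fibrils, included 11 members, of which 9 were called lower in rEEOs and 1 higher. Over all genes tested, 13.3% were called lower and 16.3% higher. Thbs1 (thrombospondin 1, which binds and activates latent TGF-beta) had 3238, 3131 and 3743 TPM in rBMSCs replicates 1, 2 and 3 and 9.59, 6.17 and 10.1 TPM in rEEOs. The groups were far apart and the rEEOs libraries close together, with a log2 ratio of -8.37 ± 0.32 (SE, edgeR adjusted p = 8.04e-06). Fn1 (fibronectin) had 2921, 2444 and 2996 TPM in rBMSCs and 0.8, 0.03 and 0.24 TPM in rEEOs. Its few rEEOs reads, 79, 3 and 23 counts, were uneven between libraries, and it showed a log2 ratio of -12.82 ± 1.08 (SE, edgeR adjusted p = 0.000124). Postn (periostin, a matricellular protein of collagen-rich tissue) had 1429, 1329 and 1442 TPM compared to 0.31, 2.02 and 7.82 TPM. Replicate 3 was the highest rEEOs library here and replicate 1 the lowest, unlike Fn1, and Postn gave a log2 ratio of -8.33 ± 1.29 (SE, edgeR adjusted p = 0.00169). The mesenchymal collagen Col1a1 had 2, 5 and 11 counts in the same libraries, and its part in the residual Fn1 and Postn reads was not tested.

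Thbs2, a relative of Thbs1, was lower still, with 784, 699 and 760.4 TPM in rBMSCs and 2, 0 and 9 counts in rEEOs, with a log2 ratio of -13.49 ± 0.84 (SE, edgeR adjusted p = 3.75e-05). Thbs3 kept a readable level in both cell types, 41.5 ± 0.63 TPM in rBMSCs and 4.87 ± 0.557 TPM in rEEOs, and its log2 ratio of -2.83 (edgeR adjusted p = 5.15e-05) was the smallest of the 9. Comp, the cartilage thrombospondin, had 6.32 ± 0.35 TPM in rBMSCs and 8, 4 and 11 counts in rEEOs. Tnc (tenascin C, a matrix protein of wounds and embryonic mesenchyme) had 275, 249 and 314 TPM in rBMSCs, and its 39, 0 and 0 counts in rEEOs came from replicate 1 alone. Tnn (tenascin N) had 1349, 1196 and 1246 counts in rBMSCs and 1, 0 and 0 in rEEOs, 3800-fold (95% counting interval 682 to 150100) lower. Tgfbi, a secreted protein induced by TGF-beta that binds integrins, had 11, 10.5 and 12.1 TPM compared to 0.23, 0.2 and 0.03 TPM, a log2 ratio of -5.93 ± 0.46 (SE, edgeR adjusted p = 9.17e-05).

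The 2 matrilins had positive fold changes. Matn4 (matrilin 4, an adaptor protein that links matrix filaments) had 0, 1 and 2 counts in rBMSCs and 420, 88 and 82 in rEEOs, 196-fold (95% counting interval 66.8 to 954) higher, and was called with an adjusted p of 0.0008 from edgeR. Its rEEOs levels were 16.5, 3.47 and 3.24 TPM, so replicate 1 stood above the other two while all 3 lay above every rBMSCs library. Matn2 had 0.28, 0.41 and 0.6 TPM in rBMSCs and 1.24, 0.5 and 1.27 TPM in rEEOs. These groups overlapped, and its log2 ratio was 1.42 ± 0.43 (SE, edgeR adjusted p = 0.0257), with an adjusted p of up to 0.086 when a library was left out.

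The bone and mineral genes held the leading member of each cell type. Sparc (osteonectin, a collagen-binding glycoprotein) was the most abundant member in rBMSCs and ranked 8 among all genes held, at 7897, 7963 and 7948 TPM. In rEEOs it had 1, 0 and 16 counts, with a log2 ratio of -14.62 ± 1.19 (SE, edgeR adjusted p = 0.000107). Spp1 (osteopontin, a secreted phosphoprotein that binds integrins and CD44) was the most abundant member in rEEOs and ranked 4 among all genes held, at 4067, 12297 and 12565 TPM, compared to 368, 356 and 364 TPM in rBMSCs. Every rEEOs library lay above every rBMSCs library, with replicate 1 well under the other two, and the log2 ratio was 5.10 ± 0.63 (SE, edgeR adjusted p = 0.000631), or 34.3-fold. With each library left out in turn it lay between 4.84 and 5.55. The 250 bases before the RefSeq start sites of these genes, which stand at opposite ends of the role, are shown with motif matches in capitals.
Sparc (GRCr8 chr10:40038817-40039066, minus strand): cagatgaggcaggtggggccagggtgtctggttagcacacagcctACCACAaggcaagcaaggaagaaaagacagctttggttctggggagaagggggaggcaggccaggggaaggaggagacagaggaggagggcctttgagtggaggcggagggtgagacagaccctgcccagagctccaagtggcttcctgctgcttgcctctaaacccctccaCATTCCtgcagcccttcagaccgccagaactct
Spp1 (GRCr8 chr14:5619805-5620054, minus strand): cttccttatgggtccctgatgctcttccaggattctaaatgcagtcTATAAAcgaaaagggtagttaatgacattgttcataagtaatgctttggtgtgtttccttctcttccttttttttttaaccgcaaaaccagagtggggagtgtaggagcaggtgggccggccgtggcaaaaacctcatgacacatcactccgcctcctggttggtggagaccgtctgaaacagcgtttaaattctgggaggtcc
The motifs searched on both strands were the TATA box (TATAAA), the GC box (GGGCGG), the CCAAT box, the AP-1 motif (TGANTCA), the TEAD motif (GGAATG) and the RUNX motif (TGTGGT). The Sparc window held a RUNX and a TEAD match, motifs found in 14.1% and 11.8% of all 27457 windows of this length. The Spp1 window held a TATA box match, found in 13.1%, that lay 204 bases before the start. A match is a run of letters and not a site of binding. Windows were at hand for 37 of the 53 members, too few to compare motif shares between them.

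Other bone genes were low or similar in both cell types. Ibsp had 1 count in the 6 libraries together, and Bglap (osteocalcin, a late osteoblast product) had 4, 4 and 3 counts in rBMSCs and 2, 0 and 6 in rEEOs, so both bone-specific proteins stood near the lowest readable count in either cell type. Alpl (alkaline phosphatase, an enzyme of mineralizing cells also found on epithelia) had 23.6, 22.8 and 22.1 TPM in rBMSCs and 38.1, 22.1 and 20.8 TPM in rEEOs. The groups overlapped, with replicate 1 of rEEOs above the rest, and the log2 ratio of 0.45 ± 0.15 (SE, edgeR adjusted p = 0.0396) had an adjusted p of up to 0.143 with a library left out. Sparcl1, a relative of Sparc, had 28, 29 and 31 counts in the rBMSCs libraries and 0 in all rEEOs libraries, at least 9.56-fold lower.

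Of the Runx transcription factors held, Runx1, a regulator of blood stem cells also used in epithelia, had 59.3, 51.7 and 59.8 TPM in rBMSCs and 47.2, 16.9 and 17.3 TPM in rEEOs. Replicate 1 of rEEOs lay close to the rBMSCs libraries and the other rEEOs libraries well under them, with a log2 ratio of -0.99 ± 0.29 (SE, edgeR adjusted p = 0.0231), short of the threshold of 2. With a library left out, its adjusted p reached 0.0736. Runx3 had 102, 99 and 91 counts in the rBMSCs libraries and 0 in all rEEOs libraries, at least 31.7-fold lower (edgeR adjusted p = 0.000193), so that Runx1 was the one Runx gene of these read in rEEOs.

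Small leucine-rich proteoglycans, which coat and space collagen fibrils, were read almost wholly in rBMSCs, and there Bgn dominated. Their summed level was 3404 to 3574 TPM in rBMSCs and 0.75 to 3.94 TPM in rEEOs. All 5 members tested were called lower, where 13.3% of all genes tested were. Bgn (biglycan) had 3439, 3276 and 3349 TPM in rBMSCs and 0.4, 0.37 and 0.59 TPM in rEEOs, a log2 ratio of -12.58 ± 0.37 (SE, edgeR adjusted p = 4.7e-06). Its closest relative Dcn (decorin) had 6, 8 and 9 counts in the rBMSCs libraries and 0 in all rEEOs libraries. In TPM, Dcn stood at 0.43, 0.53 and 0.67 in rBMSCs, the lowest level of the role together with Ogn. Prelp, a proteoglycan of cartilage and basement membrane, had 68.6, 65.3 and 67.2 TPM in rBMSCs and 0.02, 0.14 and 0.22 TPM in rEEOs, a log2 ratio of -9.05 ± 0.45 (SE, edgeR adjusted p = 1.83e-05). Fmod (fibromodulin) had 39.7, 40.1 and 41.5 TPM in rBMSCs and 3.52, 0.24 and 0.03 TPM in rEEOs, where replicate 1 held nearly all of its reads. Its log2 ratio was -4.96 ± 1.11 (SE, edgeR adjusted p = 0.00813), and -7.77 without rEEOs replicate 1. Lum (lumican) had 16.5, 14.2 and 12.5 TPM in rBMSCs and no count in rEEOs, at least 71.9-fold lower (edgeR adjusted p = 0.000119). Omd (osteomodulin) had 157, 119.9 and 124 estimated counts in the rBMSCs libraries and 0 in all rEEOs libraries, at least 43.5-fold lower. Ogn (osteoglycin), with 24, 16.1 and 7.96 counts in the rBMSCs libraries and 0 in all rEEOs libraries, fell under the filter. In the RefSeq gene order, Dcn lies next to Lum, Ogn next to Omd and Prelp next to Fmod. The first 2 pairs hold the 4 lowest members of the role in rBMSCs, and reads of Omd and Ogn were estimated as fractions of counts, so their separate values are uncertain.

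Both lecticans held were called lower in rEEOs, where 13.3% of all genes tested were, whereas the hyaluronan synthase Has3 was not called. Acan (aggrecan, the large proteoglycan of cartilage) had 488, 435 and 507 TPM in rBMSCs and 0, 0 and 3 counts in rEEOs, 34480-fold (95% counting interval 11800 to 167200) lower. Vcan (versican, the lectican of loose connective tissue) had 57.9, 48.9 and 66 TPM in rBMSCs and 0, 0 and 1 counts in rEEOs, 17070-fold (95% counting interval 3063 to 674300) lower. Both were called (edgeR adjusted p = 1.55e-05 for Acan and 6.81e-06 for Vcan). Of the chondrocyte markers in rBMSCs, Col2a1 had 1, 0 and 1 counts, Col9a1 had none and Col10a1 had 0, 2 and 2. Col11a2 had 65, 70 and 53 counts there (0.87, 0.89 and 0.71 TPM) and Sox5 had 202, 172 and 203 (3.59, 2.68 and 3.33 TPM). Among other genes known from cartilage, Comp, Prelp and Cilp had means of 6.32, 67.1 and 757 TPM in rBMSCs. Hapln1, Cilp2 and Epyc had means of 2.03, 1.08 and 0.293 TPM there. Has3, a hyaluronan synthase, had 11, 9 and 11 counts in rBMSCs and 13, 4 and 4 in rEEOs, a log2 ratio of -0.61 ± 0.44 (SE, edgeR adjusted p = 0.255). The groups overlapped, and without rEEOs replicate 1 the log2 ratio was -1.15 with an adjusted p of 0.0383.

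Of the 13 genes grouped by name as elastic fibre genes, 12 were tested, 7 were called lower and none was called higher. Over all genes tested, 13.3% were called lower. Mfap1a, Mfap3 and Mfap3l, which belong to the group by name only, were among those tested and not called. Fbn1 (fibrillin 1, the core of microfibrils) had the most negative log2 fold change of the members, -17.20 ± 0.56 (SE, edgeR adjusted p = 5.16e-06), on 70596, 63296 and 73143 counts in rBMSCs and 0, 1 and 0 in rEEOs. From the counts it was 207500-fold (95% counting interval 37240 to 8196000) lower. Its level in rBMSCs was 682, 576 and 739 TPM. The 250 bases before its RefSeq start, shown because its fitted fold change was the most negative, held none of the motifs searched.
Fbn1 (GRCr8 chr3:133203391-133203640, minus strand): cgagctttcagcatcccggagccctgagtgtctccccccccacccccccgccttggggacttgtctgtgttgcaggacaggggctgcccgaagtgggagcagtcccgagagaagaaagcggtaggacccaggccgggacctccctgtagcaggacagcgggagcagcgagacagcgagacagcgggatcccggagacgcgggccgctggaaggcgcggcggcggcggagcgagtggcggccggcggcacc
Fbln2 (fibulin 2) had 863, 839 and 928 TPM in rBMSCs and 2, 2 and 4 counts in rEEOs, a log2 ratio of -13.69 ± 0.36 (SE, edgeR adjusted p = 4.59e-06). Mfap5, a microfibril protein that binds fibrillin, had 876, 1052 and 928 counts in the rBMSCs libraries and 0 in all rEEOs libraries, at least 309.7-fold lower. Emilin2, a glycoprotein of the elastin and microfibril interface, had 24.9 ± 0.304 TPM in rBMSCs and 27, 0 and 2 counts in rEEOs. Mfap4 had 0.93, 3.31 and 1.24 TPM in rBMSCs and no count in rEEOs, at least 8.19-fold lower. Both were called, as was the low Fbln7 (fibulin 7), at 0.51 ± 0.01 TPM in rBMSCs and 0.15, 0 and 0 TPM in rEEOs. Fbln7 rests on 11, 12 and 11 counts in rBMSCs, and its adjusted p of 0.0194 from edgeR became 0.0547 without rBMSCs replicate 2.

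Efemp2 (fibulin 4, needed for elastic fibre assembly) was the elastic fibre gene best read in rEEOs. It had 318, 332 and 315 TPM in rBMSCs and 38.4, 51.9 and 44.4 TPM in rEEOs, with tight values in both, and was called with a log2 ratio of -2.51 ± 0.26 (SE, edgeR adjusted p = 0.000309). Fbln1 (fibulin 1) had 31.1, 29.8 and 30.1 TPM in rBMSCs and 20.4, 2.04 and 5.31 TPM in rEEOs. The groups did not overlap but the rEEOs libraries were far apart, and the log2 ratio of -1.72 ± 0.65 (SE) missed the threshold (edgeR adjusted p = 0.0555). Without rEEOs replicate 1 it was -2.73 with an adjusted p of 0.000562. Fbn2 (fibrillin 2) had 12, 9 and 19 counts in rBMSCs and 164, 6 and 15 in rEEOs, so that 1 library set its log2 ratio of 1.97 ± 1.07 (SE, edgeR adjusted p = 0.149). Efemp1 had 1, 0 and 0 counts in rBMSCs and 8, 4 and 3 in rEEOs. The rows Mfap1a, Mfap3 and Mfap3l carry the family name, but Mfap1a encodes a nuclear splicing protein and the other two membrane proteins. Mfap1a had 31.1, 10.1 and 10.3 TPM in rEEOs and 45.8, 41.7 and 45.1 TPM in rBMSCs (log2 ratio -1.22, adjusted p = 0.0172 from edgeR), Mfap3 had a log2 ratio of -1.05 (adjusted p = 0.0692), and Mfap3l one of 1.61 (adjusted p = 0.0233, 2.01 with library size only). In all 3, replicate 1 was the highest of the rEEOs libraries.

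The CCN proteins, small matricellular proteins that modulate integrin and growth factor signals, included 1 member with overlapping levels in both cell types. The other 3 were called lower in rEEOs, where 13.3% of all genes tested were. Cyr61 (Ccn1, an immediate target of YAP and serum response factor) had 364, 385 and 404 TPM in rBMSCs and 84.2, 405 and 626 TPM in rEEOs. The rEEOs values spanned the rBMSCs values on both sides, with replicate 1 lowest and replicate 3 highest, and no difference was called (log2 ratio 0.33 ± 0.71 SE, edgeR adjusted p = 0.7). Its sign turned in some settings, to -0.46 with limma on log2(TPM + 1) and to -0.27 without rEEOs replicate 3. Wisp2 (Ccn5) had 668, 678 and 661 TPM in rBMSCs and 6.75, 0.16 and 1.65 TPM in rEEOs, a log2 ratio of -7.79 ± 1.01 (SE, edgeR adjusted p = 0.000788). Wisp1 (Ccn4, a target of Wnt signaling) had 156, 123 and 149 TPM in rBMSCs and 2, 0 and 0 counts in rEEOs, 3623-fold (95% counting interval 1003 to 29920) lower. Nov (Ccn3) had 254, 258 and 230 counts in the rBMSCs libraries and 0 in all rEEOs libraries, at least 80.4-fold lower. The upstream bases of Cyr61, the member with similar mean levels in both cell types, are shown for contrast with Sparc and Fbn1. They held a TATA box match 34 bases before the start, a GC box match directly after it and a TEAD match. The GC box motif was in 32.4% of all windows.
Cyr61 (GRCr8 chr2:237225690-237225939, minus strand): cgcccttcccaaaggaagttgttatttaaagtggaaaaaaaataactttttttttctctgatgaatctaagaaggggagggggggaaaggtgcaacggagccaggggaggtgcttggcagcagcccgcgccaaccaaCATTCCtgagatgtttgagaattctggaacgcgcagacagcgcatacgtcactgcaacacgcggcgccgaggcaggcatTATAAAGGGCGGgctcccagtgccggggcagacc

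Among the cell surface heparan sulfate proteoglycans held, which lack Sdc1 and Gpc4, different members led in the 2 cell types. The summed level was 1177 to 1277 TPM in rBMSCs and 165 to 346 TPM in rEEOs. Sdc2 (syndecan 2, the main syndecan of mesenchyme) had 795, 727 and 813 TPM in rBMSCs and 35.4, 5.29 and 25.4 TPM in rEEOs, a log2 ratio of -4.99 ± 0.63 (SE, edgeR adjusted p = 0.000707). Sdc4 (syndecan 4, a fibronectin co-receptor at focal adhesions) had 68.2, 69.6 and 68.4 TPM in rBMSCs and 225, 141 and 301 TPM in rEEOs. All rEEOs libraries exceeded all rBMSCs libraries, and the log2 ratio of 1.95 ± 0.29 (SE, edgeR adjusted p = 0.00148) lay just under 2, at 2.33 with library size only. Sdc3 had 2.03, 1.84 and 2.15 TPM and 10.4, 2.31 and 5.63 TPM, a log2 ratio of 1.76 ± 0.41 (SE, edgeR adjusted p = 0.00965). As a share of the syndecans held, Sdc2 made up 91.9%, 91.1% and 92% in rBMSCs and 13%, 3.57% and 7.66% in rEEOs, and Sdc4 83.1%, 94.9% and 90.6% in rEEOs.

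The glypicans, anchored to the membrane by a lipid, gave a similar picture at a lower level in rEEOs. Gpc1 had 333, 318 and 326 TPM in rBMSCs and 0.88, 0.12 and 0.25 TPM in rEEOs, a log2 ratio of -9.45 ± 0.59 (SE, edgeR adjusted p = 3.86e-05). Gpc6 had 66.2, 58.5 and 65.2 TPM compared to 0.92, 1.91 and 1.07 TPM, a log2 ratio of -5.30 ± 0.44 (SE, edgeR adjusted p = 0.000114). Gpc5 had 36, 54 and 31 counts in the rBMSCs libraries and 0 in all rEEOs libraries, at least 13.1-fold lower. In the other direction, Gpc3 (glypican 3, an oncofetal regulator of Wnt and Hedgehog signals) had 1, 0 and 0 counts in rBMSCs and 30, 279 and 262 in rEEOs. With 1.28, 11.9 and 11.2 TPM its rEEOs replicate 1 was far below the others, and it was 569.7-fold (95% counting interval 102 to 22540) higher by counts (edgeR adjusted p = 0.0025). Gpc2 had 4, 8 and 6 counts in rBMSCs and 9, 77 and 45 in rEEOs and fell under the filter. Of the TPM of the glypicans held, Gpc3 formed 37.9%, 72% and 79.8% in rEEOs replicates 1, 2 and 3, where Gpc1 formed 83.1%, 83.9% and 83% in rBMSCs. The glypicans held summed to between 3.38 and 16.6 TPM in rEEOs and between 379 and 401 TPM in rBMSCs.

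**Figure D3:**
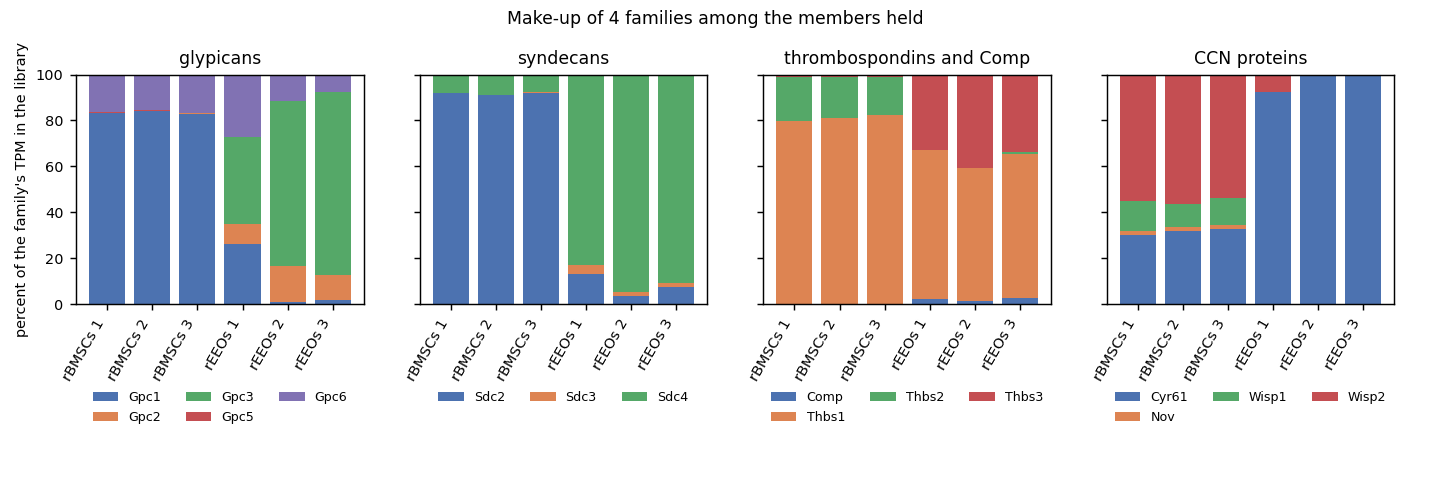
Percent of a family's TPM taken by each of its members held, for glypicans, syndecans, thrombospondins with Comp, and CCN proteins, in each library. The rBMSCs bars are alike, with Gpc1, Sdc2, Thbs1 and Wisp2 largest. In rEEOs, Gpc3, Sdc4 and Cyr61 take the largest part of their families and Thbs1 still leads the thrombospondins. The Gpc1 share is larger in rEEOs replicate 1 than in the other rEEOs libraries.

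The spread of the members among the rEEOs libraries was wide and did not run one way. Of the 22 members with at least 1 TPM on average in rEEOs, replicate 1 was the highest library for 11 and the lowest for 7. Matn4, Fbln1, Mfap3l and Alpl were highest there, and Spp1, Cyr61, Gpc3 and Gpc2 lowest. The median coefficient of variation over members tested with at least 1 TPM on average was 69.5% in rEEOs (21 members), compared to 31% over all such genes, and 5.85% in rBMSCs (42 members), compared to 6.87%. Members and all genes were not matched for level here. Without rEEOs replicate 1, the median SD of log2(CPM + 1) in rEEOs was 0.16 over members tested and 0.164 over all genes tested.

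**Figure D4:**
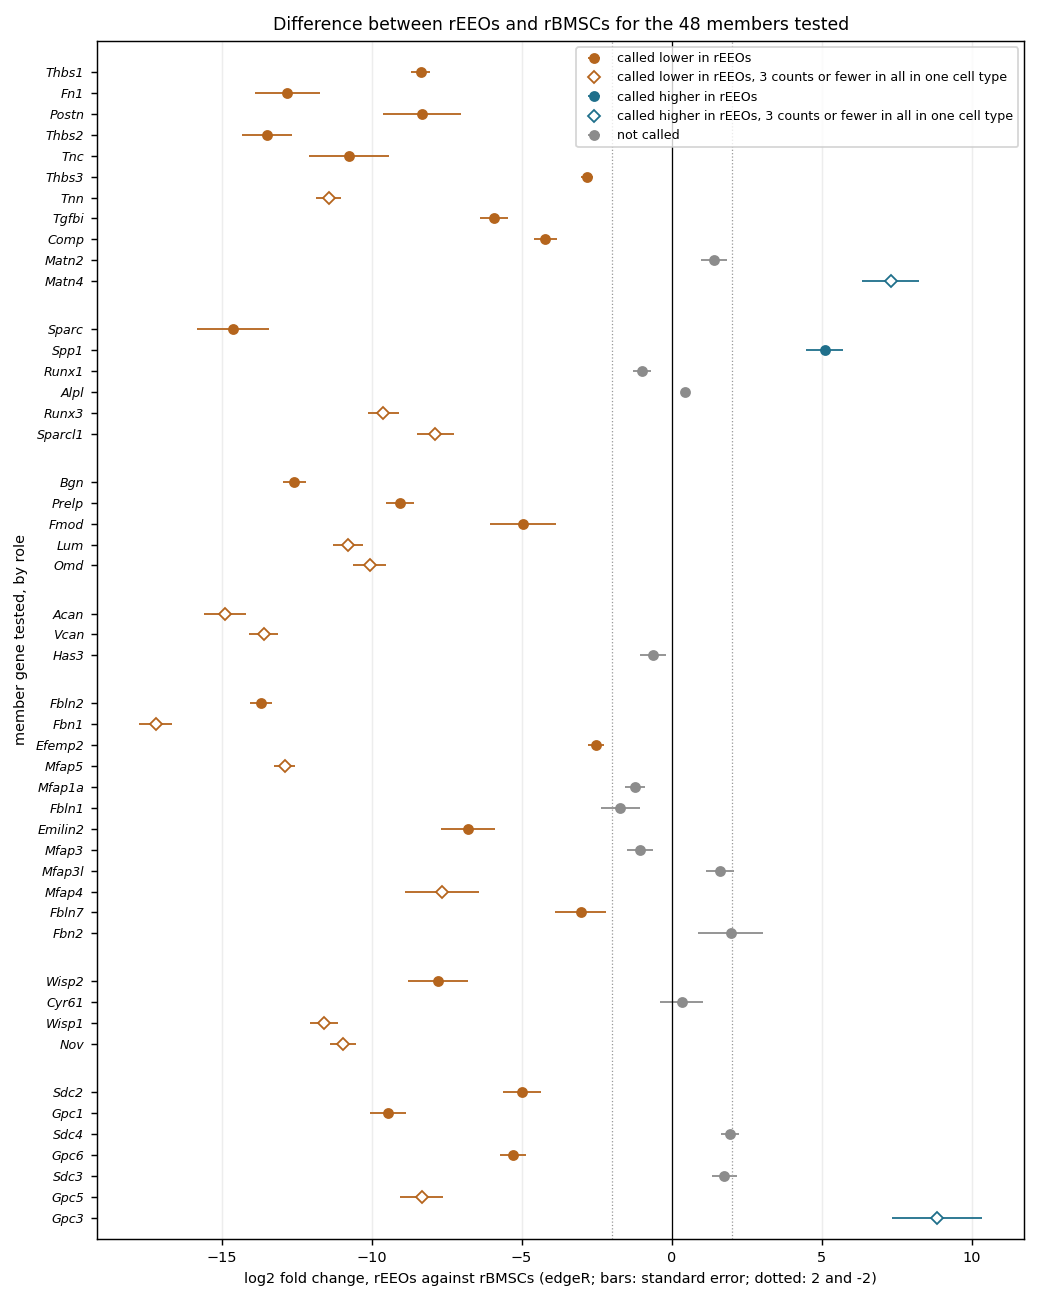
Log2 fold change of rEEOs against rBMSCs for the 48 members tested (edgeR; bars are standard errors; dotted lines at 2 and -2), with open diamonds where a cell type had 3 counts or fewer in all, whose fitted size is not a bound. Most points lie left of -2, 3 lie right of 2, and Sdc4 and Fbn2 sit just inside 2.

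Genes that build, modify or read this matrix were compared in the same test from 4 further lists. In the order given below, the lists named 41, 29, 13 and 25 genes, of which 33, 21, 9 and 15 were held. Of the other matrix proteins and crosslinkers, 30 of the 33 held were tested, and 21 were called lower and 2 higher. Lox (lysyl oxidase, which crosslinks collagen and elastin) averaged 771 ± 77.7 TPM in rBMSCs and 0, 1 and 0 counts in rEEOs, and Cilp, a cartilage intermediate layer protein, had 757 ± 42 TPM and 1, 0 and 1 counts. The genes called higher were Tgm2 (transglutaminase 2, a crosslinking enzyme), at 614, 93.8 and 137 TPM in rEEOs and 1.2 ± 0.136 TPM in rBMSCs, and Agrn (agrin, a basement membrane proteoglycan), at 65.3 ± 12.1 TPM compared to 5.12 ± 0.726 TPM. Hspg2 (perlecan) of this list was called lower (log2 ratio -3.44, edgeR adjusted p = 0.000276). It had 18.9 ± 12.1 TPM in rEEOs and 227 ± 34.7 TPM in rBMSCs. Nid2, a basement membrane protein, had 174 ± 18.2 TPM in rEEOs and 231 ± 11.8 TPM in rBMSCs (log2 ratio -0.13 ± 0.22 SE, edgeR adjusted p = 0.627), whereas Nid1 had 12.7 ± 0.647 TPM and 562 ± 67.3 TPM (log2 ratio -5.21, adjusted p = 1.13e-05).

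Of the heparan sulfate and other glycosaminoglycan enzymes, 19 of the 21 held were tested, and 7 were called lower and 2 higher. Hpse (heparanase, which cleaves heparan sulfate) had 55.2, 49.3 and 44.2 TPM in rEEOs and 1, 0 and 0 counts in rBMSCs, 5393-fold (95% counting interval 968 to 213000) higher, and Hs3st1, a sulfotransferase of heparan sulfate, had 6.52 ± 4.5 TPM compared to 0.05 ± 0.0866 TPM. Chain-building Ext1 was lower, at 3.1 ± 1.79 TPM compared to 37.1 ± 1.77 TPM, and Chst3, a chondroitin sulfotransferase, had no count in rEEOs and 449, 471 and 451 in rBMSCs. Of the 8 hyaluronan receptors and turnover genes tested, 2 were called higher and 1 lower. Tnfaip6 (TSG-6, which transfers heavy chains onto hyaluronan) had 2513, 1789.8 and 1593 TPM in rEEOs and 4.51, 4.47 and 4.6 TPM in rBMSCs, a log2 ratio of 9.00 ± 0.21 (SE, edgeR adjusted p = 4.02e-06). Hyal1, a hyaluronidase, had 126 ± 107 TPM compared to 23.8 ± 1.99 TPM, a log2 ratio of 2.51 ± 0.42 (SE, edgeR adjusted p = 0.00233). The gene called lower was Hmmr, also a gene of dividing cells, at 22.7, 1.66 and 2.89 TPM in rEEOs and 46, 42.2 and 49.6 TPM in rBMSCs (edgeR adjusted p = 0.0441). No gene of this list was called lower when rBMSCs replicate 1, 2 or 3 or rEEOs replicate 2 or 3 was left out, and without rEEOs replicate 1 Tnfaip6 was called higher and Hyal1 was not. Of 12 mineralization and bone regulators tested, 4 were called lower and 1 higher. Dlx5, a homeobox factor known in bone and in uterine epithelium, had 33 ± 12.2 TPM in rEEOs and 0.863 ± 0.474 TPM in rBMSCs, a log2 ratio of 5.47 ± 0.49 (SE, edgeR adjusted p = 0.000162). Tnfrsf11b (osteoprotegerin, which blocks osteoclast formation) had 0.0733 ± 0.127 TPM and 59.7 ± 4.78 TPM. In the order given, the genes called lower made up 70%, 36.8%, 12.5% and 33.3% of those tested in the 4 lists, where 13.3% of all genes tested were called lower. The genes called higher made up 6.67%, 10.5%, 25% and 8.33%, where 16.3% of all genes tested were. The hyaluronan share called lower was close to that of all genes.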

How the data were processed

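Polyadenylated RNA of 3 rBMSCs and 3 rEEOs libraries was sequenced by the study as single-end reads of 150 bases. Reads were trimmed (Trim Galore), aligned with Bowtie2 (version 2.2.5) and quantified with RSEM (version 1.3.1), with Rnor_6.0 named in the submitters' processing notes. The authors deposited 1 table with expected counts (RSEM estimates that need not be whole), TPM and FPKM for each library. FPKM, as deposited by the authors, was not used here. Strandedness of the counting was not given in the sources used here. The copy used holds 13728 genes and its last row has 23 of 27 fields, with all per-library values present; totals and shares refer to the genes held. The members and gene lists were chosen with earlier results of these data known.

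Expected counts were rounded and tested with edgeR (version 4.0.16, R 4.3.3) by its quasi-likelihood test with TMM scaling on all genes that reached 10 counts in 3 or more libraries of the 6, with Benjamini-Hochberg adjustment over all 10607 genes tested. Calls needed an adjusted p below 0.05 and an absolute log2 fold change above 2. All 53 members were named. Values were given in full for the 2 highest of each role in each cell type, the largest called changes and a fixed set of well-known genes. Fold changes against a cell type with no count were computed as bounds from a floor of 3 counts per library, equal to 0.181 to 0.262 CPM. With 1 to 3 counts, the ratio is given with its 95% counting interval. Both cover counting error only. Shares of TPM were compared by a two-sided exact permutation test (scipy 1.17.1). DESeq2 (version 1.42.0) and limma (version 3.58.1, on log2(TPM + 1) and log2(TPM + 0.1)) served as alternatives, beside other scalings, filters, thresholds, a replicate block and leaving out each library. Sequences are from RefSeq on GRCr8, and gene IDs matched RefSeq for 52 of the 53 members.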

Additional observations from a re-analysis of the deposited data

How the results depend on the processing

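Among single members, 33 of the 36 calls held under each of the 14 alternative fits that tested them. Sparcl1 and Gpc5 were not called with limma on log2(TPM + 1), nor Fbln7 without rBMSCs replicate 2. With means of 1.15 and 1.69 TPM in rBMSCs and no count in rEEOs, Sparcl1 and Gpc5 could not pass 2 on that scale. The fold change of Cyr61 (0.33) turned to -0.46 and -0.47 with limma (pseudocounts 1 and 0.1), -0.14 with a replicate block and -0.27 without rEEOs replicate 3 (-0.27 to 0.86 with a library left out), and that of Fbn2 (1.97) to -0.15 without rEEOs replicate 1 (-0.15 to 2.50). Fitted sizes for genes with few rEEOs counts moved with single libraries: without rEEOs replicate 1, Fmod went from -4.96 to -7.77, Tnc from -10.75 to -17.24 and Fbln7 from -3.03 to -6.44. The rEEOs counts were 119, 8 and 1 for Fmod, 39, 0 and 0 for Tnc and 4, 0 and 0 for Fbln7. Why the libraries differed was not tested.

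Members called higher numbered 3, or 6 with library size only (a scaling that moved the median of all genes by 0.38), 5 with every gene of at least 1 count, 7 at an absolute log2 fold change above 1 and 8 by adjusted p alone. Of all 10607 genes tested, 2663 were higher and 2287 lower at an absolute log2 fold change above 1. By adjusted p alone, 3529 of them were higher and 3199 lower. Leaving out a library gave 3 to 5 higher, the 5 without rEEOs replicate 2, when Sdc4 (2.17) and Sdc3 (2.12) passed 2, and 32 to 34 lower. Glycosaminoglycan enzymes had 1 higher with the filter at 50 counts, and 11 and 13 lower at a fold threshold of 1 and by adjusted p alone. Hyaluronan genes had 4 higher under both of these thresholds (1 to 2 with a library left out), and 0 lower with library size only, 2 by adjusted p alone and 0 to 1 with a library left out. Mineralization genes had 2 higher with DESeq2, and 1, 1, 2 and 7 lower with the filter at 50 counts, limma (pseudocounts 1 and 0.1) and adjusted p alone. The difference in member share was -1.52 percentage points of TPM, -4.48 of counts, and -1.68 to -1.23 with a library left out.

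The labels number replicates 1 to 3 in both cell types, but same-numbered libraries did not deviate together (r = 0.13, 0.15 and -0.11; 2 of the 6 libraries correlated best with their own number). With the replicate number as a block, 3 members were called higher and 34 lower. Genes with few counts are limited by depth, since 3 counts per library equal 0.181 to 0.262 CPM, and the wide spread of the rEEOs libraries limits small differences.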
